A study of Mus musculus with 27 samples.

Results

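The quantity described here is a difference of differences: the early change with ImP (imidazole propionate, a product of histidine breakdown by gut microbes) in macrophages minus the change at 1 h in fibroblasts. It uses 12 of the 27 bulk RNA sequencing libraries of the series, in 4 groups of 3, and is given for every gene as a log2 difference, positive where the macrophage change was the higher one. The groups are bone marrow derived mouse macrophages given ImP at 10 µg/mL (libraries M14, M18 and M22), the same cells unstimulated at 0 h (M13, M17 and M21), mouse embryonic fibroblasts given the same dose for 1 h (F26, F30 and F34), and unstimulated fibroblasts (F25, F29 and F33). M14 and M18 are labelled 1 h with ImP and M22 is labelled 2 h. The library labelled as the third 1 h macrophage sample is M23. The early macrophage group was chosen by the measured levels of inflammatory genes, which put M22 with M14 and M18 and M23 with the other 2 h libraries. The exchange therefore cannot be tested on the genes that chose it.

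Each result below is given in up to 3 versions. The difference as labelled, with M23 in the 1 h group, is the test. The difference with M22 and M23 both left out compares M14 and M18 with 0 h and is also tested, but those libraries were left out for values seen earlier, which makes its p-values too small. The difference by the exchanged labels is a description, with a standard error and no p-value. Genotype, strain, sex and age of the source animals are not given in the labels. Both cell types were plated at the same number of cells and went through the same directional library kit. The labels give no group kept in culture without ImP for 1 or 2 h, so ImP and time in culture cannot be told apart. They do not say that replicates were separate cultures or animals, so the p-values measure only the spread between these libraries, which may be technical.

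The totals of the 12 libraries ran between 30554596 and 35583478 estimated counts. Levels are CPM, counts divided by library size with 1 scaling over all 27 libraries. Of 13 macrophage markers, 13 averaged at least 10 CPM in the macrophage libraries, where their sum was 28650 to 29210 CPM with ImP and 29240 to 31770 CPM at 0 h. Of 12 fibroblast markers, 6 reached that level in the fibroblast libraries, led by collagen genes, while the matrix proteoglycan gene Lum was at 0. Their sum was 8312 to 9224 CPM with ImP and 8091 to 9705 CPM at 0 h. One fibroblast library, F26, stood apart: its sum of macrophage markers was 73.4 CPM, against 44 to 46.8 CPM in the other 1 h fibroblast libraries and 37.6 to 51.5 CPM at 0 h, and its interferon genes were high, as described below. In bulk RNA, fewer cells of a type and less RNA per cell cannot be told apart.

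The changes within each cell type were fitted in the same models. With M22 and M23 left out, 57 genes passed in the macrophage change itself (M14 and M18 over 0 h), 56 of them higher. In the fibroblast change 0 genes passed in edgeR, as labelled and with M22 and M23 left out, and 469 had an unadjusted p under 0.05 in each; DESeq2 called 6 as labelled and limma-voom 0. Changes named for fibroblasts are therefore given as values of their libraries. Whether M22 and M23 were exchanged was not tested, and both keep their labels in every test.

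NF-kB is held in the cytoplasm by IkB proteins until signals such as those of Toll-like, interleukin-1 or TNF receptors lead to their destruction. It then switches on chemokine and cytokine genes within minutes, together with genes for its own inhibitors, so that the response is brief. Macrophages are a main source of these mediators in the artery wall, and fibroblasts make many of the same chemokines. Immediate early transcription factors such as EGR1 and JUNB follow MAP kinase signalling on the same time scale, and a separate route, from BMP and TGF-beta receptors to SMAD proteins, drives the Id genes and the inhibitory SMADs.

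The promoters of 3 genes at the centre of the difference are shown because they carry kB motifs, the letters that NF-kB dimers recognise. Each line holds the 250 bases before the start site on the gene's strand (RefSeq, GRCm38.p6), with matches to the kB motif (GGG, any 3 bases, then TTCC) on either strand in capitals; overlapping matches run together. Cxcl1 lies at chr5:90890995-90891244 on the plus strand, Cxcl2 at chr5:90903649-90903898 on the plus strand, and Nfkbia at chr12:55492648-55492897 on the minus strand.
Cxcl1: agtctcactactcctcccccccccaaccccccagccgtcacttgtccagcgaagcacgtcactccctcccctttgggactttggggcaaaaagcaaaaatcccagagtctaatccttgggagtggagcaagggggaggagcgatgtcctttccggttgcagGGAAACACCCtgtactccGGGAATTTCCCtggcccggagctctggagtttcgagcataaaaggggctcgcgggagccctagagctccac
Cxcl2: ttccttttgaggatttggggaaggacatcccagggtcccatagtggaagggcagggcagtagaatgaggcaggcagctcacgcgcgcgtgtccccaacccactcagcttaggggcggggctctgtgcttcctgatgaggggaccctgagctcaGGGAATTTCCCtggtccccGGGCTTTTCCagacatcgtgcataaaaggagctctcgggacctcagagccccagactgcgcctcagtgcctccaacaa
Nfkbia: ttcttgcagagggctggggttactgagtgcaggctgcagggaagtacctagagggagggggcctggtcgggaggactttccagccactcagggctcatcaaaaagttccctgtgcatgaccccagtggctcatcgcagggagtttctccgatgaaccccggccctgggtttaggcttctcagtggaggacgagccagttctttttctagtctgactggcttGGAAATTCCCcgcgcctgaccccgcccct
The Cxcl1 and Cxcl2 windows hold 3 matches each and the Nfkbia window holds 1. Between 250 bases before and 50 after the start, the motif occurred in 4 of 26 promoters (15.4%) of the 20 matched genes among the 26 that passed with M22 and M23 left out, and in 5.56% of all 32851 promoters in the table. The cyclic AMP response element TGACGTCA occurred in 4 of the 26 (15.4%), against 1.79% of all, and the AP-1 motif TGANTCA in 0 of the 26, against 7.81%. A match describes letters and shows no binding.

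As labelled, 1 gene passed in the direction of a higher macrophage change and 0 in the other, of 17038 tested (0.00587% and 0%; edgeR quasi-likelihood test, Benjamini-Hochberg adjusted p under 0.05). At an unadjusted p under 0.05 there were 616 genes. DESeq2 gave 4 higher (Id3, Smad6, H2ac18 and a predicted gene) and 1 lower (a predicted gene), and limma-voom 1 and 0. The gene was Id3, described with the SMAD targets below. With M22 and M23 left out, 26 genes passed as higher and 1 as lower, of 17582 tested (0.148% and 0.00569%). Of the 26, Id3 alone also passed as labelled. For the rest, every edgeR adjusted p under 0.05 given below comes from a fit without M22 and M23. By the exchanged labels, 362 of 12480 genes averaging 1 CPM or more had a log2 difference of 1 or more (2.9%) and 319 one of -1 or less (2.56%). These 2 shares rest on the exchange itself, so nothing is read from list counts beside them. In 166 of the 362 and 138 of the 319, 1 cell type averaged 3 counts or fewer. Of the 9850 genes at 1 CPM or more in both cell types, 40 were past that mark as higher and 21 as lower. In 39 of the 40, all 3 early macrophage libraries lay above all 3 at 0 h, against 6.73% of all 12480 genes. The 40 were picked by the same values, so nothing is read from that count.

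**Figure D1:**
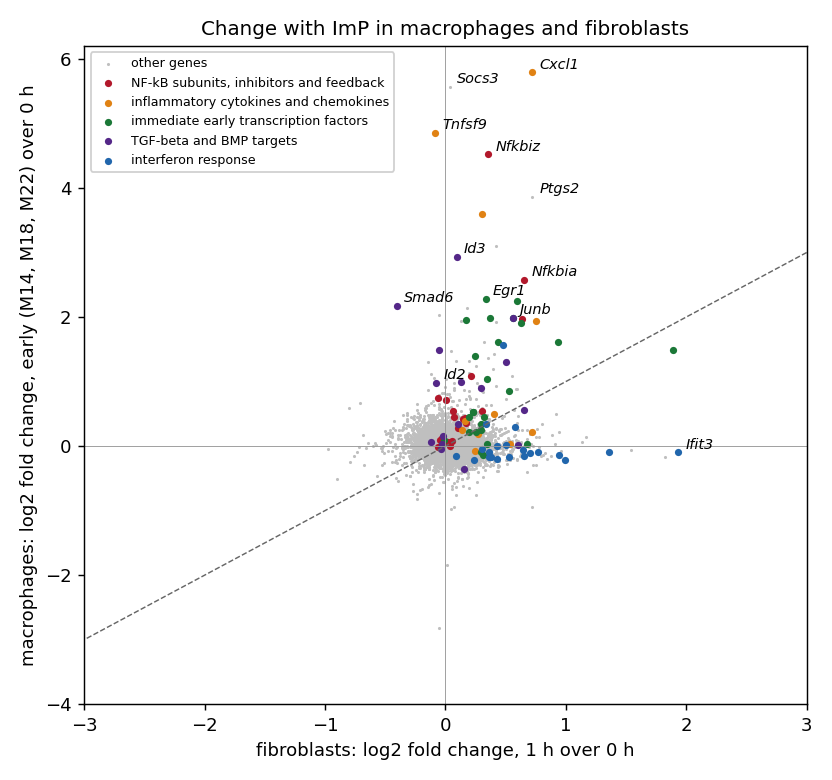
Log2 fold change with ImP for the 9850 genes averaging 1 CPM or more in both cell types: macrophages (M14, M18 and M22 over 0 h) on the vertical axis, fibroblasts (1 h over 0 h) on the horizontal axis, 5 gene lists in colour and the line of equal change dashed. Of the genes shown, 7 of 11 inflammatory, 18 of 19 NF-kB and 18 of 25 immediate early genes lie above the line, with a macrophage change of 5.79 for Cxcl1. Of all 12480 genes averaging 1 CPM or more over the 12 libraries, 6060 had a positive difference. M22 was placed by inflammatory genes, so nothing is read from the list counts. All 21 interferon genes shown lie to the right of 0, and the share of all genes there was not counted. This rests largely on F26, the highest 1 h fibroblast library at 23 of 23 interferon genes measured. Without F26 the median fibroblast change of these 23 was 0.01. In the plot 1 gene falls outside the axes.

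Several chemokine and cytokine genes were at higher levels in M14, M18 and M22 than in macrophages at 0 h. Cxcl2, a neutrophil-attracting chemokine, had 105, 112 and 118 CPM in M14, M18 and M22, 3.05 CPM in M23, and 1.40, 1.84 and 1.42 CPM at 0 h. In fibroblasts it had 1.14, 0.717 and 0.657 CPM with ImP and 1.02, 0.435 and 0.310 CPM at 0 h. M14, M18 and M22 lay far above all other macrophage libraries, and the fibroblast groups overlapped at about 1 CPM or less. The log2 difference was 5.07 (SE 2.07, edgeR adjusted p = 1) as labelled and 5.63 (SE 1.01, edgeR adjusted p = 0.013) with M22 and M23 left out. By the exchanged labels it was 5.68 (SE 0.893).

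Cxcl1, its neighbour and another ligand of the chemokine receptor CXCR2, had 15.6, 17 and 23.9 CPM in M14, M18 and M22, 0.100 CPM in M23 and 0.184, 0.469 and 0.344 CPM at 0 h. In fibroblasts it had 217, 159 and 114 CPM with ImP and 92.5, 125 and 80.6 CPM at 0 h. The macrophage groups were 55.3 times apart, yet fibroblasts without ImP held more of this transcript than macrophages did with it, and their own groups overlapped with F26 the highest. The difference was 4.86 (SE 0.650, edgeR adjusted p = 3.14e-04) with M22 and M23 left out, and 4.28 (SE 1.76, edgeR adjusted p = 1) as labelled.

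Tnfsf9, which encodes the T cell costimulatory ligand 4-1BBL, had 62.9, 60.8 and 63.6 CPM in M14, M18 and M22, 3.28 CPM in M23 and 2.28, 1.91 and 2.30 CPM at 0 h. Fibroblasts had 4.52, 5.99 and 5.64 CPM with ImP and 4.97, 5.94 and 6.22 CPM at 0 h. Resting fibroblasts thus held more than resting macrophages, and macrophages with ImP held the most; the difference was 4.92 (SE 0.395, edgeR adjusted p = 5.45e-08) with M22 and M23 left out.

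Il1b and Tnf, cytokines of activated macrophages, were so low in fibroblasts that the difference was not measurable at this depth. Il1b had 123, 118 and 130.2 CPM in M14, M18 and M22, 1.10 CPM in M23 and 1.55, 1.84 and 1.19 CPM at 0 h, while fibroblasts had 0.170, 0.0287 and 0.0274 CPM with ImP and 0, 0.0512 and 0 CPM at 0 h. Tnf had 264, 257 and 309.9 CPM in M14, M18 and M22, 21.1 CPM in M23 and 17.7, 16.3 and 17.6 CPM at 0 h, against 0.284, 0.172 and 0.0548 CPM in fibroblasts with ImP and 0, 0.0256 and 0.113 CPM at 0 h. The fibroblast values rest on a few counts, and the Tnf difference, 1.53 (SE 4.24, edgeR adjusted p = 1) as labelled and 2.06 (SE 1.51, edgeR adjusted p = 1) with M22 and M23 left out, passed in neither test. Its macrophage change was 16.1-fold by the exchanged labels. Without F33 the labelled Tnf difference was -0.00862. Il1a had 41.3, 39 and 41.8 CPM in M14, M18 and M22, 2.78 CPM in M23 and 2.62, 3.38 and 4.13 CPM at 0 h, against 2.41, 0.860 and 0.821 CPM in fibroblasts with ImP and 1.22, 1.05 and 1.04 CPM at 0 h, and did not pass either (3.27, SE 1.03, edgeR adjusted p = 0.928, with M22 and M23 left out).

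Of 24 inflammatory cytokines and chemokines with a mean of at least 1 CPM, 11 were past the mark as higher and 1 as lower by the exchanged labels, and 3 passed with M22 and M23 left out. Over all genes these shares were 2.9%, 2.56% and 0.148%, which apply to the lists that follow as well. In 17 of the 24, all early macrophage libraries lay above all at 0 h (6.73% of all 12480 genes did), and in 9 all 1 h fibroblast libraries did (6.23% of all genes). The early macrophage group was chosen by genes of this kind, so nothing is read from the macrophage counts of this list and the ones that follow. None of the 24 had all early macrophage libraries below 0 h (6.41% of all genes) or all 1 h fibroblast libraries below 0 h (3.88%). The median log2 change was 0.76 in macrophages and 0.53 in fibroblasts, and the median difference was 0.46, against -0.01 over all genes. Without F26 the median difference was 1.00, and F26 was the highest of the 1 h fibroblast libraries at 16 of the 24. Cxcl10, which attracts activated T cells, shows this: it had 10.8, 8.41 and 11 CPM in M14, M18 and M22 and 1.73, 3.45 and 2.60 CPM in macrophages at 0 h, against 391, 242 and 166 CPM in fibroblasts with ImP and 125, 208 and 141 CPM at 0 h. Its fibroblast groups overlapped and F26 was the highest library. Ccl2, which attracts monocytes, was nearer the reverse: 82.1, 101 and 90.2 CPM in M14, M18 and M22 and 86.2, 79.8 and 69.1 CPM in macrophages at 0 h overlapped, while 61.6, 79 and 76 CPM in fibroblasts with ImP lay above 42.2, 53.4 and 36.4 CPM at 0 h. Its difference of -0.50 (SE 0.283) by the exchanged labels did not reach the mark and did not pass as labelled (-0.61, SE 0.301, edgeR adjusted p = 1).

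**Figure D2:**
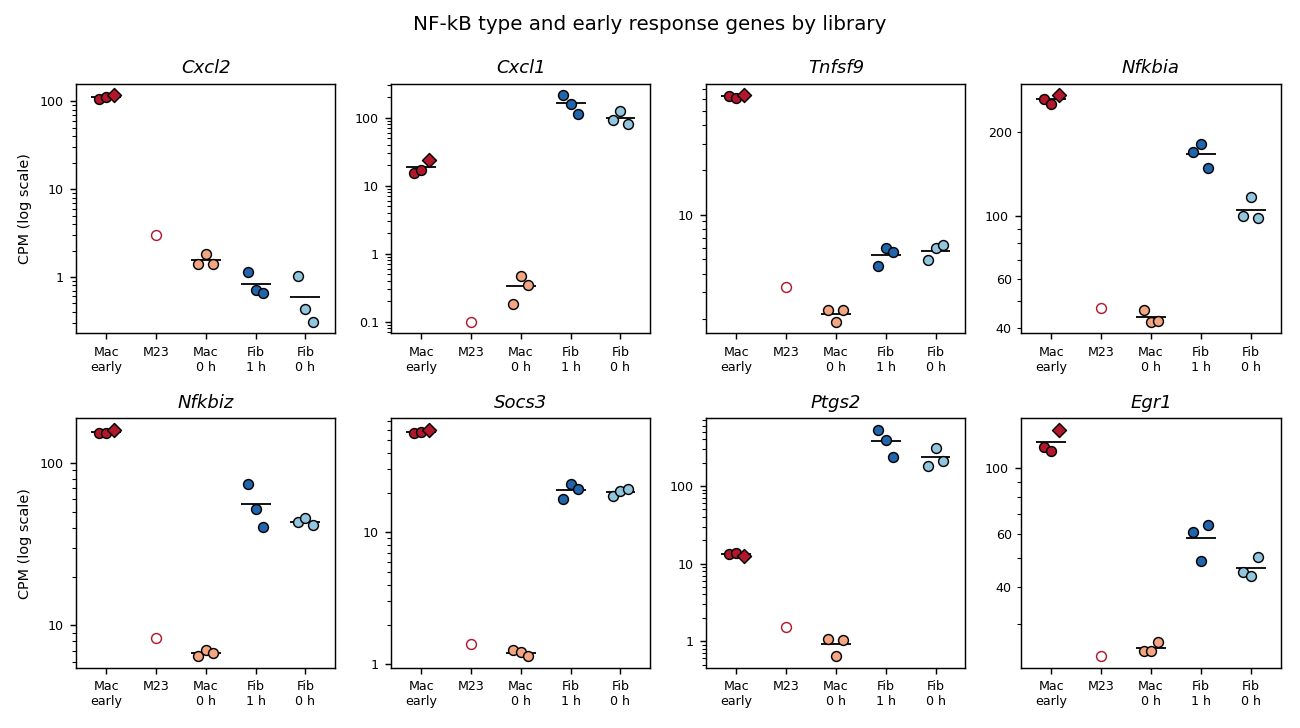
CPM on log axes for 8 genes in each library: early macrophages (M14, M18 and, as a diamond, M22), M23 (open circle), macrophages at 0 h, fibroblasts at 1 h and fibroblasts at 0 h, with bars at group means. M14, M18 and M22 sit together far above 0 h in every panel, M23 sits near the 0 h libraries, and fibroblasts without ImP already hold 100.2, 117 and 98.5 CPM of Nfkbia, above macrophages at 0 h.

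Genes for proteins that restrain NF-kB were also among those that passed. Nfkbia, which encodes IkB alpha and is switched on by the factor it inhibits, had 261, 251 and 270.0 CPM in M14, M18 and M22, 47.3 CPM in M23 and 46.4, 42.2 and 42.5 CPM in macrophages at 0 h. Fibroblasts had 169, 180.1 and 149 CPM with ImP and 100.2, 117 and 98.5 CPM at 0 h. Here both cell types had ImP libraries wholly above their 0 h libraries, by 5.96 times in macrophages and 1.58 times in fibroblasts, and the difference was 1.89 (SE 0.171, edgeR adjusted p = 3.36e-07) with M22 and M23 left out. As labelled it was 1.44 (SE 0.729, edgeR adjusted p = 1). Nfkbiz, which encodes the atypical nuclear IkB zeta, a partner NF-kB needs at a second set of genes, had 154, 153 and 160.1 CPM in M14, M18 and M22, 8.37 CPM in M23 and 6.45, 7.10 and 6.74 CPM at 0 h. Its fibroblast groups overlapped, at 74.1, 52.4 and 40.3 CPM with ImP and 43.6, 45.8 and 41.2 CPM at 0 h, and the difference was 4.15 (SE 0.301, edgeR adjusted p = 1.06e-08) with M22 and M23 left out. Tnfaip3, which encodes the ubiquitin-editing enzyme A20, had 271, 271 and 307 CPM in M14, M18 and M22 and 73.6, 69.3 and 74.2 CPM in macrophages at 0 h, against 93.1, 77 and 69.5 CPM in fibroblasts with ImP and 49.9, 52.7 and 51.5 CPM at 0 h. Neither pair of groups overlapped, and the difference did not pass (1.27, SE 0.305, edgeR adjusted p = 0.172).

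Of 23 NF-kB subunits, inhibitors and feedback genes, 19 had all early macrophage libraries above 0 h (6.73% of all genes did) and 3 had all 1 h fibroblast libraries above 0 h (6.23%). Past the mark were 3 as higher and 1 as lower, and the passing genes with M22 and M23 left out were Nfkbia, Nfkbiz and Tnfaip2. Tnfaip2, a TNF-inducible cytoplasmic protein, was 661, 639 and 664 CPM in M14, M18 and M22 and 384, 395 and 419.6 CPM in macrophages at 0 h, against 117, 119 and 126 CPM in fibroblasts with ImP and 113, 121 and 125 CPM at 0 h, a difference of 0.69 (SE 0.111, edgeR adjusted p = 0.00281). The gene past the mark as lower was Cd83, a surface protein of activated antigen-presenting cells: 220.0, 215 and 237 CPM in M14, M18 and M22 lay above 134, 134 and 129.7 CPM in macrophages at 0 h, and the negative value came from fibroblast levels of 0.199, 0.0573 and 0.246 CPM with ImP and 0.0249, 0.0769 and 0.0282 CPM at 0 h. The subunit genes Rela and Nfkb1 had differences of 0.02 and 0.13 by the exchanged labels.

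Socs3, the inhibitor of cytokine signalling through STAT3, had the smallest p of the test with M22 and M23 left out. It lies on chromosome 11 at 117966079-117970047 (GRCm38, minus strand). Socs3 had 56.5, 57.7 and 60.1 CPM in M14, M18 and M22, 1.44 CPM in M23 and 1.29, 1.24 and 1.15 CPM in macrophages at 0 h. Fibroblasts had 17.8, 23.2 and 21.5 CPM with ImP and 18.9, 20.5 and 21.5 CPM at 0 h, with overlapping groups. The macrophage change was 47.2-fold by the exchanged labels and the difference was 5.50 (SE 0.339, edgeR adjusted p = 6.60e-10) with M22 and M23 left out, and 4.93 (SE 1.45, edgeR adjusted p = 1) as labelled. Of the other 7 SOCS family members, Cish was past the mark at 1.05 (SE 0.420), and the differences of the rest ran between -0.77 for Socs1 and 0.23 for Socs7.

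Among regulators of mRNA decay, 7 of 9 had all early macrophage libraries above 0 h (6.73% of all genes did) and 3 all 1 h fibroblast libraries above 0 h (6.23%), with 0 of 9 past the mark. Zfp36, which encodes tristetraprolin, a protein that speeds the decay of cytokine mRNAs, had 485, 484 and 496 CPM in M14, M18 and M22, 192 CPM in M23 and 193, 203 and 186 CPM in macrophages at 0 h, against 15.3, 11.1 and 12 CPM in fibroblasts with ImP and 8.26, 8.94 and 9.71 CPM at 0 h. Both cell types had ImP libraries above 0 h, the macrophages by more, and the difference did not pass (0.81, SE 0.226, edgeR adjusted p = 0.565). Zc3h12a, which encodes the RNase Regnase, was at 37.6, 33.7 and 39.4 CPM in M14, M18 and M22 and 19, 16.1 and 17.2 CPM in macrophages at 0 h, against 31.7, 29 and 20.8 CPM in fibroblasts with ImP and 23.8, 24.3 and 23.1 CPM at 0 h, with a difference of 0.89 (SE 0.274) by the exchanged labels. Those of Zc3h12c and Zfp36l1, relatives of these genes, were 0.72 (SE 0.469) and 0.26 (SE 0.167).

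In the list of prostaglandin and itaconate enzymes, 2 of 10 were past the mark as higher (2.9% of all genes were). Both passed with M22 and M23 left out (0.148% of all genes did). Ptgs2, the inducible cyclooxygenase, had 13.3, 13.8 and 12.5 CPM in M14, M18 and M22, 1.54 CPM in M23 and 1.07, 0.637 and 1.03 CPM in macrophages at 0 h. Fibroblasts held far more, 530.0, 389 and 235 CPM with ImP and 183, 307 and 209 CPM at 0 h, with overlapping groups and F26 the highest. The difference was 3.18 (SE 0.514, edgeR adjusted p = 0.00374), a proportionally larger macrophage change on a much lower level. Acod1, which makes itaconate in activated macrophages, had 14.1, 11.2 and 16.7 CPM in M14, M18 and M22, 1.07 CPM in M23 and 1.03, 1.14 and 1.07 CPM at 0 h, against 0.369, 0.889 and 0.520 CPM in fibroblasts with ImP and 0.721, 0.845 and 0.957 CPM at 0 h. Its difference was 4.05 (SE 0.783, edgeR adjusted p = 0.0345) with M22 and M23 left out. Sod2, the mitochondrial superoxide dismutase, and Ptges, a prostaglandin E synthase, lay inside the mark at 0.61 (SE 0.141) and 0.51 (SE 0.439).

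Of 27 immediate early genes measured, 18 had all early macrophage libraries above 0 h (6.73% of all genes did) and 15 all 1 h fibroblast libraries above 0 h (6.23% of all genes). Past the mark were 8 as higher and 0 as lower, and 5 passed with M22 and M23 left out. Egr1, a zinc finger factor induced by ERK signalling, had 118, 113 and 134 CPM in M14, M18 and M22, 23.4 CPM in M23 and 24.4, 24.5 and 26.1 CPM in macrophages at 0 h. Fibroblasts had 61.3, 48.7 and 64.5 CPM with ImP and 44.7, 43.4 and 50.3 CPM at 0 h, and only F34 and F26 cleared every 0 h library. The difference was 1.88 (SE 0.217, edgeR adjusted p = 2.39e-05) with M22 and M23 left out. Ier3 had 48.1, 43.8 and 41.6 CPM in M14, M18 and M22 and 9.25, 9.92 and 8.96 CPM in macrophages at 0 h, against 200, 176 and 117 CPM in fibroblasts with ImP and 102, 117 and 109 CPM at 0 h, and a difference of 1.70 (SE 0.256, edgeR adjusted p = 0.00115). The orphan nuclear receptor gene Nr4a1 had 52.6, 57.8 and 51.5 CPM in M14, M18 and M22 and 13.9, 13.9 and 15.3 CPM in macrophages at 0 h, against 20.4, 20.01 and 18.8 CPM in fibroblasts with ImP and 12.3, 14.3 and 11.7 CPM at 0 h. Neither pair of Nr4a1 groups overlapped, with M22 in the early group and M23 outside it. The difference was 1.31 (SE 0.228, edgeR adjusted p = 0.00715) with M22 and M23 left out and did not pass as labelled. Maff, a small MAF protein, and the antiproliferative gene Btg2 also passed, at 1.79 (SE 0.258, edgeR adjusted p = 6.59e-04) and 1.14 (SE 0.197, edgeR adjusted p = 0.00715). Csrnp1, a nuclear protein induced by AXIN, was past the mark at 1.61 (SE 0.435) and did not pass.

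Junb and Fosb show the 2 other layouts. Junb had 272, 269.8 and 247 CPM in M14, M18 and M22, 83.9 CPM in M23 and 86.1, 34.8 and 77.8 CPM in macrophages at 0 h, against 143, 191 and 178 CPM in fibroblasts with ImP and 111, 120.1 and 118 CPM at 0 h. M17 alone was low among the 0 h libraries, and the difference did not pass (1.47, SE 0.331, edgeR adjusted p = 0.0982). Fosb had 7.99, 6.00 and 6.12 CPM in M14, M18 and M22 and 2.54, 2.55 and 2.03 CPM in macrophages at 0 h, against 7.95, 15.2 and 12.7 CPM in fibroblasts with ImP and 2.74, 3.59 and 3.35 CPM at 0 h. Its groups were apart in both cell types and its difference, -0.40 (SE 0.777), had the opposite sign without reaching the mark. Fos itself was 165, 169.5 and 179 CPM in M14, M18 and M22 and 101, 90.3 and 91.7 CPM in macrophages at 0 h, against 3.72, 5.25 and 3.75 CPM in fibroblasts with ImP and 3.46, 2.28 and 3.10 CPM at 0 h, a difference of 0.34 (SE 0.227).

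Dual-specificity phosphatases, which switch off MAP kinases, had 3 of 10 past the mark as higher (2.9% of all genes were). With M22 and M23 left out 2 passed (0.148% of all genes did). In 6 of the 10 all early macrophage libraries lay above 0 h, and in 2, Dusp6 and Dusp7, all lay below (6.73% and 6.41% of all genes). Dusp1 had 139.6, 133 and 138 CPM in M14, M18 and M22, 46 CPM in M23 and 38.9, 30.9 and 38.3 CPM in macrophages at 0 h, against 28.5, 19.4 and 18.2 CPM in fibroblasts with ImP and 18.8, 13.8 and 16.8 CPM at 0 h. The fibroblast groups overlapped at F34, and the difference was 1.5 (SE 0.303, edgeR adjusted p = 0.0393). Dusp5, which acts on nuclear ERK, had 20.8, 23.5 and 17.7 CPM in M14, M18 and M22 and 8.62, 8.11 and 8.08 CPM in macrophages at 0 h, against 86.6, 102 and 108 CPM in fibroblasts with ImP and 87.3, 79.7 and 90.9 CPM at 0 h, and a difference of 1.22 (SE 0.254, edgeR adjusted p = 0.0471). Dusp2 was past the mark with 32.4, 30.3 and 30.2 CPM in M14, M18 and M22 and 6.71, 4.52 and 3.67 CPM in macrophages at 0 h, but its fibroblast levels were 0.0284, 0.0573 and 0.164 CPM with ImP and 0, 0.0512 and 0.0563 CPM at 0 h, a few counts each. Dusp8 lay inside it at 0.71 (SE 0.330).

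Genes outside these lists passed as well with M22 and M23 left out. Errfi1, an inhibitor of EGF receptor signalling, was 40.6, 33.7 and 39.4 CPM in M14, M18 and M22 and 7.52, 10.6 and 7.54 CPM in macrophages at 0 h, against 264, 285 and 286 CPM in fibroblasts with ImP and 232, 251 and 254 CPM at 0 h, a difference of 1.93 (SE 0.194, edgeR adjusted p = 2.13e-06). Pde4b, a phosphodiesterase that breaks down cyclic AMP in immune cells, was 48.9, 38.2 and 43.4 CPM in M14, M18 and M22 and 10.7, 12.4 and 10.9 CPM in macrophages at 0 h, against 24.4, 24.4 and 25.4 CPM in fibroblasts with ImP and 22.8, 23.6 and 21.2 CPM at 0 h, a difference of 1.81 (SE 0.196, edgeR adjusted p = 7.97e-06). Marcksl1, an actin-binding kinase substrate, was 104, 108 and 102 CPM in M14, M18 and M22 and 30.2, 19.3 and 27.5 CPM in macrophages at 0 h, against 99.3, 134 and 164 CPM in fibroblasts with ImP and 144, 119.9 and 148 CPM at 0 h, a difference of 2.09 (SE 0.245, edgeR adjusted p = 2.47e-05). In all 3 the macrophage libraries with ImP lay above 0 h and the fibroblast change was 0.18 or less. Gem, a small GTPase, Phlda1, the histone demethylase gene Kdm6b and the microRNA host gene Mir155hg passed too, at 2.75 (SE 0.557, edgeR adjusted p = 0.0393), 0.97 (SE 0.193, edgeR adjusted p = 0.0356), 1.04 (SE 0.209, edgeR adjusted p = 0.0393) and 5.20 (SE 1.06, edgeR adjusted p = 0.0425). For Tnfsf9, Errfi1, Dusp1, Dusp5, Phlda1, Kdm6b and Tnfaip2 the annotation holds an overlapping gene on the other strand, and the strand setting of the counting is not given in the sources used here, so reads of the pair cannot be told apart. Rasgrf1 passed on counts of 2, 3 and 0 in M14, M18 and M22 and 0 at 0 h, too few to read. The 1 gene that passed as lower was a predicted gene, Gm14308.

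Set side by side, these genes differ in where they started. Of the 26 that passed as higher with M22 and M23 left out, 20 were higher in fibroblasts than in macrophages at 0 h, 16 were higher in macrophages than in fibroblasts after ImP, and 10 were both. The share of all genes with these orders of level was not counted. The 26 were picked by the difference, so nothing is read from these counts. In 7 of the 26 all 1 h fibroblast libraries lay above all at 0 h, against 6.23% of all genes. The log2 differences ran between 0.69 and 9.62.

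Genes for receptors and adaptors upstream of NF-kB were tested for the same difference. Of 26 Toll-like and interleukin-1 receptor pathway genes, 3 were past the mark as higher and 2 as lower (2.9% and 2.56% of all genes). In either test 0 passed, and the median difference was 0.09. Their summed level was 3970, 3870 and 4100 CPM in M14, M18 and M22 and 3550, 4050 and 4050 CPM in macrophages at 0 h, against 601, 577 and 623 CPM in fibroblasts with ImP and 601, 576 and 639 CPM at 0 h. Tlr4, the endotoxin receptor, had 195, 184 and 212 CPM in M14, M18 and M22 and 187, 217 and 234 CPM in macrophages at 0 h, against 35.7, 24.1 and 27.4 CPM in fibroblasts with ImP and 31.1, 26.9 and 27.5 CPM at 0 h, with overlap in both. Il1r1, the signalling receptor of interleukin-1, ran the other way in level, with 0.871, 0.828 and 0.708 CPM in M14, M18 and M22 and 0.626, 0.134 and 0.536 CPM in macrophages at 0 h, against 27.8, 29 and 30.4 CPM in fibroblasts with ImP and 30.4, 29.2 and 31.7 CPM at 0 h. Tlr2, which senses bacterial lipoproteins, was past the mark: 128, 118 and 138 CPM in M14, M18 and M22, 52.1 CPM in M23 and 47.3, 55.7 and 51.2 CPM in macrophages at 0 h, against 13.3, 12.9 and 16.3 CPM in fibroblasts with ImP and 13.4, 13.2 and 13.4 CPM at 0 h. Its difference did not pass (1.17, SE 0.411, edgeR adjusted p = 1, with M22 and M23 left out). Irak3, Tlr6 and Ticam2 were past the mark at 2.07 (SE 0.796), 1.30 (SE 0.998) and -1.22 (SE 1.20), each on fibroblast levels under 1 CPM.

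Id3 was the gene that passed as labelled. Id proteins bind basic helix-loop-helix factors and keep them off DNA, and BMP and TGF-beta family ligands induce them through SMADs. Id3, on chromosome 4 at 136143497-136145755 (GRCm38, plus strand), had 75, 72 and 69.8 CPM in M14, M18 and M22, 42.3 CPM in M23 and 10.4, 9.72 and 8.34 CPM in macrophages at 0 h. In fibroblasts it had 52.9, 63 and 90.1 CPM with ImP and 69.1, 56.2 and 67.9 CPM at 0 h. All 4 ImP macrophage libraries, M23 included, lay above all 3 at 0 h by at least 4 times, while the fibroblast groups overlapped. The difference was 2.64 (SE 0.304, edgeR adjusted p = 1.15e-04) as labelled, 2.86 (SE 0.241, edgeR adjusted p = 1.11e-07) with M22 and M23 left out, and 2.84 (SE 0.222) by the exchanged labels. The call was lost when the model held the 18 macrophage and fibroblast libraries alone (adjusted p = 0.0531) or the 12 compared libraries as labelled (adjusted p = 0.0850), with differences of 2.65 and 2.64. In M14, M18 and M22 its level was above that of every fibroblast library at 0 h. In the libraries labelled aortic endothelial, Id3 stood higher than in either cell type, at 648, 652 and 675 CPM after 1 h and 746, 709 and 982 CPM unstimulated. Their library names give a low-input kit in place of the directional one, so cell type and kit cannot be told apart in these levels.

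Unlike the inflammatory genes, the Id and SMAD genes were high in M23 as well. Smad6, an inhibitory SMAD that BMP signalling induces, had 2.98, 2.92 and 1.83 CPM in M14, M18 and M22, 5.59 CPM in M23 and 0.590, 0.436 and 0.689 CPM in macrophages at 0 h. Fibroblasts had 0.909, 1.52 and 2.08 CPM with ImP and 1.67, 2.00 and 2.31 CPM at 0 h. M23 was the highest of these libraries and M22 the lowest of the 4 with ImP, the reverse of the inflammatory genes; the 2 h libraries M15 and M19 had 7.36 and 5.68 CPM. The Smad6 difference was 3.15 (SE 0.603, edgeR adjusted p = 0.183) as labelled in edgeR, with an adjusted p of 0.000772 in DESeq2, and 2.77 (SE 0.494, edgeR adjusted p = 0.0102) with M22 and M23 left out.

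Id1 had 4.65, 4.87 and 5.70 CPM in M14, M18 and M22, 8.60 CPM in M23 and 2.43, 0.938 and 2.10 CPM in macrophages at 0 h, against 8.72, 11.6 and 24.1 CPM in fibroblasts with ImP and 16.8, 12.7 and 16.7 CPM at 0 h. Id2 had 198, 217 and 214 CPM in M14, M18 and M22, 209 CPM in M23 and 108, 106 and 105 CPM in macrophages at 0 h, against 21.2, 25.6 and 51.2 CPM in fibroblasts with ImP and 40.2, 25 and 38.2 CPM at 0 h. In macrophages all ImP libraries lay above 0 h for both genes. In fibroblasts F34 was the highest 1 h library for Id1, Id2 and Id3 and F26 and F30 lay within or below the 0 h range. The differences as labelled, 1.79 (SE 0.473, edgeR adjusted p = 1) for Id1 and 1.05 (SE 0.317, edgeR adjusted p = 1) for Id2, did not pass. Without F34 they did, at 2.35 (SE 0.407, edgeR adjusted p = 0.0404) for Id1 and 1.53 (SE 0.246, edgeR adjusted p = 0.0179) for Id2, so that 1 fibroblast library decides these calls.

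Skil, a repressor of SMAD complexes and itself a TGF-beta target, had 148, 137 and 160.0 CPM in M14, M18 and M22, 136 CPM in M23 and 64.1, 77.7 and 82.9 CPM in macrophages at 0 h, against 188, 171 and 160.1 CPM in fibroblasts with ImP and 158, 157 and 159.6 CPM at 0 h. Smad7, the inhibitory SMAD of the TGF-beta branch, had 9.11, 10.5 and 9.10 CPM in M14, M18 and M22, 8.17 CPM in M23 and 4.90, 5.09 and 5.40 CPM in macrophages at 0 h, against 39.4, 36.5 and 32 CPM in fibroblasts with ImP and 29.7, 28.3 and 29.9 CPM at 0 h. For Smad7 the groups were apart in both cell types. The differences as labelled, 0.78 (SE 0.212, edgeR adjusted p = 1) for Skil and 0.56 (SE 0.261, edgeR adjusted p = 1) for Smad7, did not pass. Of 18 TGF-beta and BMP targets with a mean of at least 1 CPM, 6 were past the mark as higher and 0 as lower, 1 passed as labelled, 9 had all early macrophage libraries above 0 h (6.73% of all genes did) and 4 all 1 h fibroblast libraries (6.23%). Their median change was 0.46 in macrophages and 0.04 in fibroblasts, or 0.15 in fibroblasts without F26. Of the 16 receptor and SMAD genes of the same route, 0 were past the mark and the median difference was 0.06. The furthest from 0 were the activin receptor gene Acvr2b at 0.57 (SE 0.927) and the co-receptor genes Eng at -0.42 (SE 0.251) and Tgfbr3 at -0.33 (SE 0.239), followed by Acvr2a at 0.23 (SE 0.284).

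**Figure D3:**
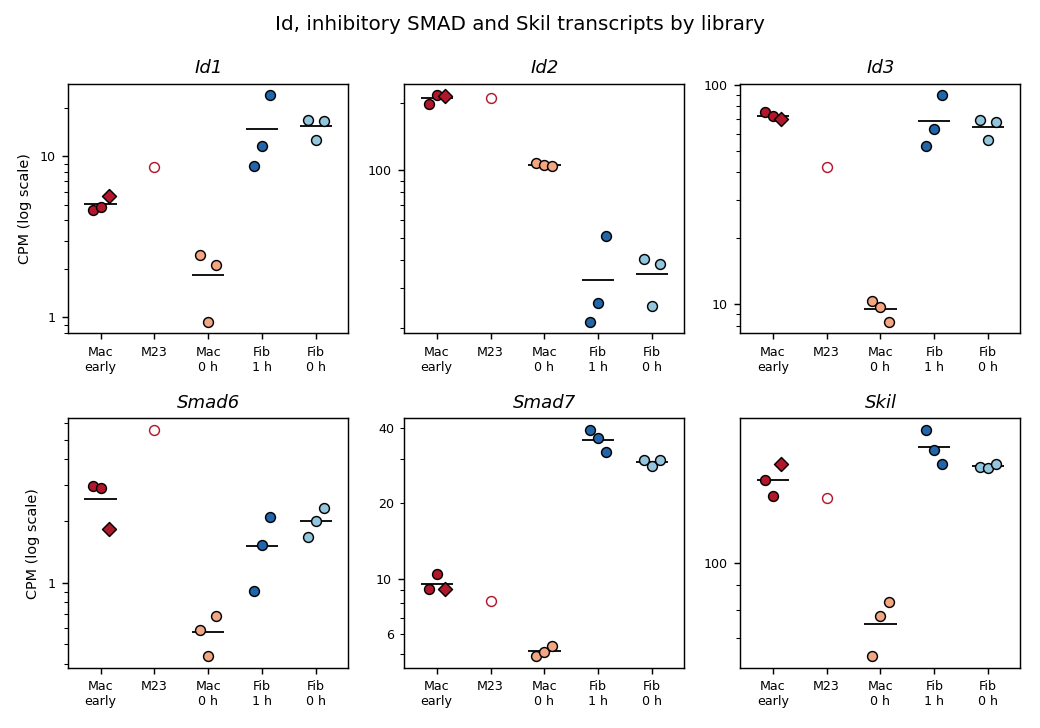
CPM on log axes for 3 Id genes, 2 inhibitory SMAD genes and Skil in each library, in the same layout as the plot of NF-kB type genes. M23 (open circle) lies above the macrophage libraries at 0 h in every panel. It is below M14, M18 and M22 for Id3, at 42.3 CPM, and above them for Smad6, at 5.59 CPM. F34 is the highest 1 h fibroblast library for the 3 Id genes.

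On the lower side, the 10 largest values by the exchanged labels rest on few counts. All 10 rest on 1 cell type with 8 counts or fewer on average, except Fam177a2, whose libraries were uneven within a group (0.690, 29 and 33.9 CPM in M14, M18 and M22 and 19.3, 67 and 2.33 CPM in macrophages at 0 h, 67.9, 0 and 0 CPM in fibroblasts with ImP and 0.0249, 0 and 0 CPM at 0 h) and which may share reads with the related gene Fam177a. The other 9 were Hectd2os, Batf, Disc1, Fam20a, Tmem44, Ifi208, Nat8l, Col17a1 and Fgfr2, and no level change is read from them. On the higher side, the macrophage group with more counts averaged 7 counts for Nacad, 4 for Fndc4 and 3.67 for Edn1, and H2ac18, one of several near-identical histone genes, was at 0 in every 1 h fibroblast library. Csf2, the cytokine GM-CSF, had 17, 17 and 16 counts in M14, M18 and M22 and 0 in M23 and at 0 h, at least 5.45-fold higher than the floor of 3 counts per library, against 7.07, 6.42 and 4.71 CPM in fibroblasts with ImP and 3.61, 3.33 and 1.63 CPM at 0 h.

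Genes at 1 CPM in both cell types held 21 past the mark as lower. In 13 of them all early macrophage libraries lay below 0 h or all 1 h fibroblast libraries above 0 h. Of all 12480 genes, 6.41% had the first and 6.23% the second. The 21 were picked by the same values, so nothing is read from that count. Serpinb6b, a protease inhibitor gene, had 24.4, 23.1 and 24.9 CPM in M14, M18 and M22 and 33.1, 30.2 and 32.4 CPM in macrophages at 0 h, against 5.99, 3.04 and 2.98 CPM in fibroblasts with ImP and 2.31, 2.89 and 2.31 CPM at 0 h. Its macrophage libraries with ImP lay below 0 h and its fibroblast libraries with ImP above 0 h. F30 and F34 were only just above, at 3.04 and 2.98 CPM against up to 2.89 CPM. F26, the fibroblast library with the highest sum of macrophage markers, had 5.99 CPM, and its part in the difference was not tested. Raet1d, a stress-induced ligand of the NKG2D receptor, had 8.31, 7.02 and 6.15 CPM in M14, M18 and M22 and 8.07, 7.51 and 4.98 CPM in macrophages at 0 h, which overlapped, against 2.30, 1.92 and 1.92 CPM in fibroblasts with ImP, all above 0.647, 0.999 and 1.15 CPM at 0 h. In Jmjd8 and Trim36 the fibroblast libraries with ImP also lay above 0 h, with differences of -1.04 (SE 0.278) and -1.04 (SE 0.861), and Serpinc1 and Smpd5 were at -1.67 (SE 0.693) and -1.03 (SE 0.905). Lars2, the mitochondrial leucyl-tRNA synthetase gene, was past the mark through M17 alone: 156, 138 and 154 CPM in M14, M18 and M22 and 200.02, 1239.8 and 172 CPM in M13, M17 and M21. None of these passed in either test.

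The interferon genes lay mostly on the lower side, and that rests largely on 1 fibroblast library. Of 23 measured, 5 were past the mark as lower and 1 as higher (2.56% and 2.9% of all genes). The median difference was -0.54, with a median change of -0.09 in macrophages and 0.50 in fibroblasts. F26 was the highest 1 h fibroblast library at 23 of the 23. It lay above all 0 h fibroblast libraries at 23 genes, F30 at 13 and F34 at 3. Their sum was 720 CPM in F26, 446 in F30 and 362 in F34, against 375, 398 and 375 CPM in fibroblasts at 0 h. Without F26 the median difference was -0.04. Ifit3, an antiviral effector, had 59, 43.5 and 55.3 CPM in M14, M18 and M22 and 43.7, 60.8 and 64 CPM in macrophages at 0 h, against 18.8, 4.59 and 2.88 CPM in fibroblasts with ImP and 2.51, 2.15 and 2.20 CPM at 0 h. Its difference was -2.03 (SE 0.626) by the exchanged labels and -0.80 without F26. Usp18 and Oas1a had 14.3, 4.56 and 1.89 CPM and 5.85, 2.32 and 1.45 CPM in F26, F30 and F34, and their differences were -1.20 (SE 0.618) and -1.45 (SE 0.608), against -0.11 and -0.69 without F26. F26 also had the highest sum of macrophage markers among fibroblast libraries, and the part of either in these values was not tested. Irf1, a transcription factor that both interferon and NF-kB induce, was the exception past the mark as higher, with 158, 159 and 173 CPM in M14, M18 and M22, 49 CPM in M23 and 50.7, 62.3 and 52.5 CPM in macrophages at 0 h, against 62, 54.9 and 55.9 CPM in fibroblasts with ImP and 44.9, 37.2 and 42.2 CPM at 0 h.

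Nuclear-encoded oxidative phosphorylation genes had negative differences at 30 of 30, and 6060 of all 12480 genes had positive ones. The values of the list ran between -0.64 and -0.16. The median difference was -0.35, with median changes of -0.17 in macrophages and 0.15 in fibroblasts, 0 past the mark and 0 passing in either test. In 14 of the 30 all early macrophage libraries lay below 0 h (6.41% of all genes did), and in 2 all 1 h fibroblast libraries lay above 0 h (6.23%). Without F26 the median difference was -0.44 and the median fibroblast change 0.25. Their sum was 1870 CPM in F26, 2150 in F30 and 2370 in F34, against 1930, 2010 and 1780 CPM in fibroblasts at 0 h. Atp5e, a subunit of ATP synthase, had 43.8, 48.6 and 46.8 CPM in M14, M18 and M22 and 57.9, 62 and 54.8 CPM in macrophages at 0 h, against 22.2, 26.3 and 32.6 CPM in fibroblasts with ImP and 21.8, 23 and 20.7 CPM at 0 h. Ndufb4, a subunit of complex I, had 26.5, 27.6 and 31.1 CPM in M14, M18 and M22 and 35.3, 39.4 and 29.3 CPM in macrophages at 0 h, against 38.6, 42.7 and 49.1 CPM in fibroblasts with ImP and 37.1, 36.9 and 32.9 CPM at 0 h. Ndufa3 and Uqcr10, subunits of complexes I and III, were at -0.48 (SE 0.251) and -0.43 (SE 0.216). These genes are short, with a median exon length of 1316 bases against 4483.5 over all genes that averaged 1 CPM or more. Across 12300 genes, exon length had a rank correlation of 0.25 with the difference, 0.10 with the macrophage change and -0.33 with the fibroblast change. The correlation of length with each library's deviation from its cell type's mean varied within groups. It was 0.108, -0.278 and -0.345 in F26, F30 and F34, and 0.13, 0.0745 and 0.3 in F25, F29 and F33. In M14, M18 and M22 it was 0.138, -0.0414 and 0.0665, and in M13, M17 and M21 -0.266, -0.055 and 0.148. Genes are not independent replicates, and the part of length in the list's value was not tested.

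**Figure D4:**
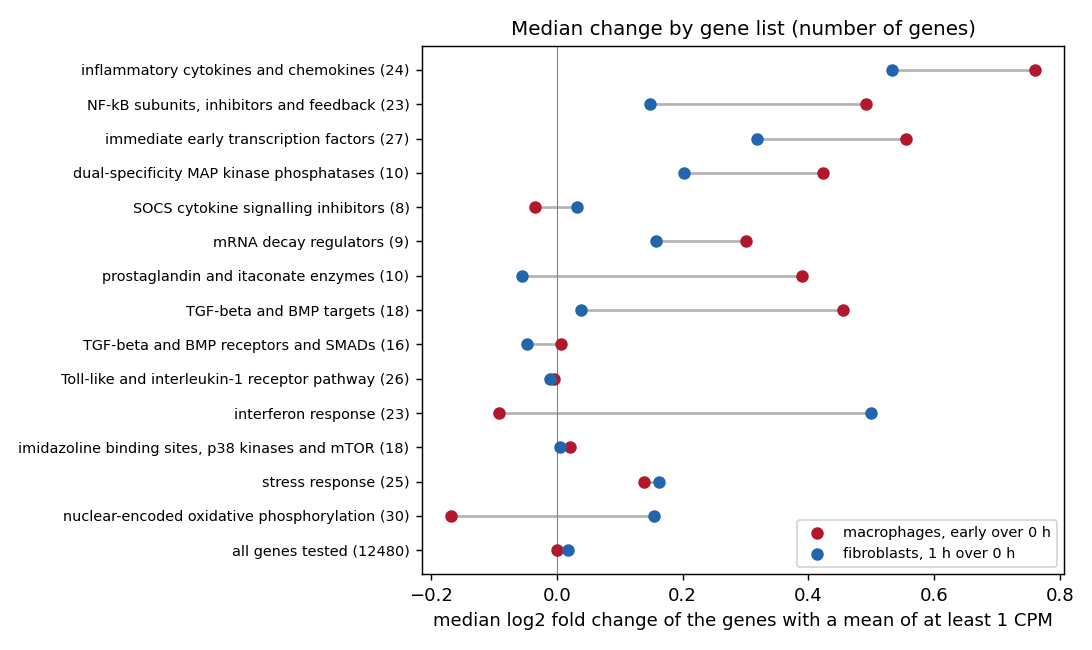
Median log2 change with ImP of 14 gene lists and of all 12480 genes that averaged 1 CPM or more, in macrophages (M14, M18 and M22 over 0 h) and fibroblasts (1 h over 0 h), with the number of genes in brackets. The inflammatory list is highest in both, at 0.76 and 0.53; the interferon and oxidative phosphorylation lists have a macrophage median below 0 and a fibroblast median above 0.

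Genes for proposed mediators of ImP did not pass in either test. Nisch, which encodes nischarin, a protein proposed as an imidazoline receptor, had 431, 418 and 402 CPM in M14, M18 and M22 and 402, 376 and 366 CPM in macrophages at 0 h, against 284, 246 and 247 CPM in fibroblasts with ImP and 278, 256 and 279 CPM at 0 h. The fibroblast groups overlapped, the macrophage groups met at M22 and M13, and the difference was 0.17 (SE 0.136, edgeR adjusted p = 1) as labelled. Of 18 genes for imidazoline binding sites, p38 kinases and the mTOR pathway, 1 was past the mark, Irs1, an insulin receptor substrate, on 0.109, 0.199 and 0.336 CPM in M14, M18 and M22 and 0.184, 0.101 and 0 CPM in macrophages at 0 h, against 19.5, 13.5 and 12.4 CPM in fibroblasts with ImP and 17.2, 18.2 and 16.5 CPM at 0 h. The p38 kinase gene Mapk11, the S6 kinase gene Rps6kb1 and the translation repressor gene Eif4ebp1 lay inside the mark at -0.40 (SE 0.341), 0.33 (SE 0.136) and -0.29 (SE 0.168). Of 25 stress response genes, 0 were past the mark and the median difference was 0.06. Sgk1, a kinase induced by stress and glucocorticoids, had the largest, 0.65 (SE 0.157), with 114, 104 and 114 CPM in M14, M18 and M22 and 59.5, 62.6 and 62.3 CPM in macrophages at 0 h, against 51.7, 60.2 and 52.2 CPM in fibroblasts with ImP and 47.2, 49.8 and 46.3 CPM at 0 h. Gadd45g, Hspa1b and Tsc22d3 followed at 0.57 (SE 0.222), 0.53 (SE 0.582) and -0.50 (SE 0.275); without F26 the value for Tsc22d3 was -0.19.

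Whether the early difference differs from the later one, with 2 h libraries in place of 1 h, was tested in the same models. The 0 h groups cancel in that contrast. As labelled 0 genes passed in edgeR, and 400 had an unadjusted p under 0.05. M22 and M23 are left out for levels of inflammatory genes seen earlier, so p-values without them are too small, above all for such genes. Nothing is read from the count in that fit. With M22 and M23 left out 20 passed, 19 of them with a larger early difference. They included Socs3 (4.83, edgeR adjusted p = 4.02e-08), Tnfsf9 (4.08, edgeR adjusted p = 5.21e-06), Nfkbiz (3.90, edgeR adjusted p = 1.86e-07), Nfkbia (1.96, edgeR adjusted p = 8.12e-07) and Pde4b (2.31, edgeR adjusted p = 7.57e-07), and not Id3, Smad6 or Cxcl2. Nfkbia had 52.1 and 42.6 CPM in the 2 h libraries M15 and M19, close to 46.4, 42.2 and 42.5 CPM at 0 h, while Id3 had 47.7 and 39.2 CPM in them, against 10.4, 9.72 and 8.34 CPM at 0 h.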

How the data were processed

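Both cell types went through 1 directional RNA library kit and 1 sequencer model, per the labels' protocols. The deposited values are estimated counts (expected counts) per gene symbol, all already whole numbers. STAR and RSEM on GRCm38.p6, with cutadapt, FastQC, DESeq2 and R 4.3.2, are named by the submitters' processing notes, without settings or strand; the 9 per-group tables equal the table of 27 libraries. Symbols were matched to GENCODE M21 (24428 of 25192, 97%). No 2 replicates of a group agreed within sampling noise (27 pairs, lowest chi-squared per degree of freedom 4.95).

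One edgeR 4.0.16 model (R 4.3.3) of 9 groups and 27 libraries was fitted with TMM scaling, filterByExpr at a minimum count of 10, robust quasi-likelihood F-tests, two-sided, Benjamini-Hochberg adjustment over all genes tested and a threshold of 0.05. The biological coefficient of variation was 0.214 as labelled and 0.227 without M22 and M23. Standard errors are the log2 difference over the root of F. The mark is a 2-fold difference at a mean of 1 CPM over the 12 libraries. A floor of 3 counts covers counting error only.

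The members, gene lists and rules were chosen with earlier results of these data known. Named are genes that passed as labelled, the 10 largest in each direction past the mark, up to 4 per list by size of the difference, and Nisch, Id1, Id2, Id3, Smad6, Smad7, Skil, Nfkbia and Tnf; marker genes are summed. Chosen after their values were seen were the genes that passed with M22 and M23 left out, those at 1 CPM in both cell types past the mark with groups apart, and Il1b, Cxcl10, Ccl2, Fos, Fosb, Tlr4, Il1r1, Rela, Nfkb1, and the 3 promoters. Alternatives were DESeq2 1.42.0, limma-voom (limma 3.58.1), other scalings and filters, fits of fewer groups, a block by sets of library codes and each library left out.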

Additional observations from a re-analysis of the deposited data

Results flagged for a closer look

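Id3 is given here because its early ImP change differed between the 2 cell types by a test of the difference itself: the log2 difference as labelled was 2.64 (SE 0.304, edgeR adjusted p = 0.000115). It was higher with ImP in 3 of 3 macrophage libraries labelled 1 h, and the fibroblast groups overlapped.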

How the results depend on the processing

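The count of 1 gene higher as labelled became 26 with M22 and M23 left out, 34 with their labels exchanged (groups that then rest on measured values), 4 in DESeq2, and 0 in the fits of 18 and of 12 libraries (1205 and 1021 genes at an unadjusted p under 0.05); the cause was not tested. With each library left out in turn it was 1 to 3, with 3 without F34 (Id1 and Id2 added) and 2 without M13 (Clcf1 added). The count of 0 lower became 1 with M22 and M23 left out, 1 with labels exchanged and 1 in DESeq2, and ran between 0 and 2 with each library left out, 2 without F25. RLE scaling, limma-voom, totals without scaling, a filter at 1 CPM and no filter kept 1 and 0. The labelled Tnf difference ran between -0.00862, a reversal, without F33 and 2.11 without F25. At a 1.5-fold mark, 693 and 669 genes lay past it by the exchanged labels, in place of 362 and 319. Early minus later gave 20 genes with M22 and M23 left out for values seen earlier, in place of 0 as labelled. Over 9 genes as labelled, 206 of the alternative values kept direction and call, 7 gained the call, 2 (both Id3) lost it and 1 reversed. The gains include Nfkbia and Smad6 with labels exchanged, which rest on measured values and are not read as tests. By the exchanged labels 442 values moved by at most 1 SE of the log2 difference and 6 by more. Of the 6, 5 were without F26, an alternative added after the data were seen. No scaling moved the median of all genes by more than 0.0435. The labels number no replicates, but the library codes run in sets of 3 per cell type. With these sets as a replicate block, an alternative added after the data were seen, the counts were 1 and 0 as labelled (Id3 again), and 22 and 2 with M22 and M23 left out, 21 of these 24 also without the block; there the fibroblast change gave 1 gene, in place of 0. The deviations of 1 h and 0 h libraries of 1 set had correlations between 0.00342 and 0.111, all above 0. Those of different sets lay between -0.115 and 0.0698, most of them below 0. The main tests did not take the sets as pairs, and whether they are pairs was not settled by these values. Depth limits the genes that average 3 counts or fewer in 1 cell type.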
